A study of Mus with 9 samples.

Results

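The insulin-like growth factor (IGF) genes examined here were the ligands Igf1 and Igf2, the receptors Igf1r and Igf2r, and the binding proteins Igfbp2, Igfbp3, Igfbp4, Igfbp5, Igfbp6 and Igfbp7. These 10 genes, of 22662 gene symbols on the array, were chosen by name as members of the family, and the family was picked on the measured averages of Igf2 and Igfbp6, which differed in opposite directions with trigonelline (TG), a plant alkaloid. The values of these genes are therefore descriptions, and no test supports them. Hippocampal RNA of 9 mice was hybridized to Clariom S Mouse arrays, with 3 arrays in each of 3 groups by the sample records, although the series text speaks of duplicates, so the number of arrays behind an average rests on the records. The control group was SAMR1, the senescence-resistant mouse line that ages normally, and the model group was SAMP8, the senescence-accelerated line with early deficits of learning and memory. Both received vehicle by mouth for 30 days, which the study's methods call water and the sample records call saline. The third group was SAMP8 mice given TG at 5 mg/kg per day for 30 days. All mice were males, 16 weeks old by the methods, and all went through 8 days of behavioral testing in the water maze after the treatment, during which TG was continued. SAMR1 and SAMP8 are separate inbred lines, so a difference between them can come from any part of the genome.

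IGF1 and IGF2 are small secreted hormones related to insulin. Both act through the IGF1 receptor, a tyrosine kinase that signals by the insulin receptor substrates to the PI3K, Akt and mTOR cascade and through Ras to the MAP kinases. The IGF2 receptor carries no such kinase; it takes IGF2 to lysosomes and also sorts lysosomal enzymes. The binding proteins hold the ligands outside the cell, prolong their life and either limit or aid their access to the receptor, and IGFBP6 is known for its preference for IGF2. In the adult brain, Igf2 RNA is found mainly in the membranes around the brain (meninges), in the choroid plexus and in vessels, and IGF2 has been studied in the hippocampus as a factor that supports memory.

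Each value below is the authors' average of a group in log2 signal, and a difference of 1 in log2 is a 2-fold change. The averages come without a value per array and the authors' p-values in the same tables were not used, so no spread between mice and no test is given here for any gene. A gene is called here where 2 averages differed by 1.5-fold or more (0.58 in log2), and the share of all 22206 probe sets past this limit is given as the background. The averages are listed to 2 decimals, so a difference is exact to 0.01. The medians over all probe sets were 6.09 for SAMR1, 6.04 for SAMP8 and 6.07 with TG, and the SAMP8 averages were identical in both tables. Each of the 10 genes had 1 probe set that carried no other symbol, and none was among the 25% of probe sets with the lowest mean signal (4.40 or below). Beside the hippocampal label, Neurod6, a transcription factor of pyramidal neurons, stood at 14.86, 14.85 and 14.88 in SAMR1, SAMP8 and TG-treated SAMP8. Prox1, a transcription factor of dentate granule cells, stood at 11.26, 11.85 and 11.00. Prox1 was thus called higher in SAMP8 (0.59) and lower with TG (-0.85), and these 2 genes do not settle how alike the dissections were. In bulk tissue, fewer cells of a type and less RNA per cell cannot be told apart.

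In SAMP8 vs. SAMR1, 3 of the 10 genes were called higher (Igf2, Igf2r and Igfbp2) and 0 were called lower. Of all probe sets, 5% were higher and 6.08% lower by this limit. In TG-treated SAMP8 vs. SAMP8, Igf2 alone of the 10 was called lower and Igfbp6 alone was called higher, against 3.74% and 4.48% of all probe sets. Between TG-treated SAMP8 and SAMR1, 0 of the 10 were called in either direction, against 5.62% higher and 4.83% lower of all probe sets. The family was picked on these averages, so these counts are not read against the background. The line comparison and the TG comparison share their SAMP8 arrays, so a high or low SAMP8 average enters both with opposite sign.

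**Figure D1:**
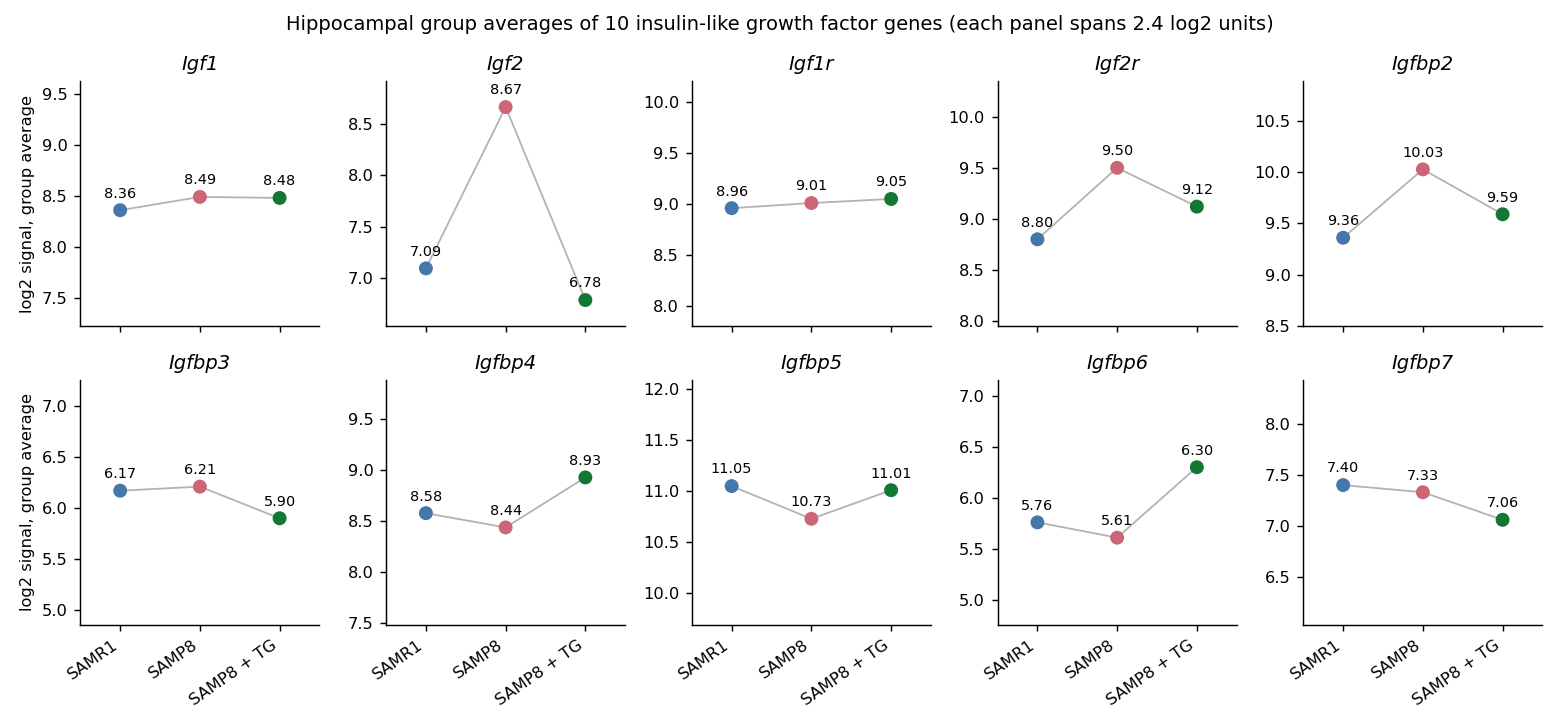
Group averages in log2 signal (y axis) of the 10 genes in SAMR1, SAMP8 and TG-treated SAMP8 (x axis), 1 point per group average of 3 arrays, with every panel spanning the same range of log2 units. There are no error bars because the averages used here come without a value per array. Igf2 has its highest point in SAMP8 (8.67), Igfbp6 has its highest in TG-treated SAMP8 (6.30), and Igf1 and Igf1r are nearly level.

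Among the ligands, Igf2 had the largest differences of the family in both comparisons. The gene lies on chromosome 7 from 142650768 to 142666816 (GRCm38). The average was 8.67 for SAMP8, 7.09 for SAMR1 and 6.78 for SAMP8 given TG. SAMP8 was thus 2.99-fold above that of SAMR1 (log2 difference 1.58), and 49 of all probe sets had a larger positive difference. With TG the average was 3.71-fold lower than in SAMP8 (log2 difference -1.89), and 3 probe sets of the array had a deeper difference. Those 3 were Ptgds, the prostaglandin D synthase (-2.69), Acta2, the actin of smooth muscle (-2.17), and Zic1, a transcription factor (-1.91). The TG-treated average lay 0.31 below that of SAMR1 (log2 difference -0.31), a 1.24-fold difference that did not reach the limit.

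Igf1, on chromosome 10 from 87858265 to 87937047, codes for the ligand through which growth hormone acts on growth. Its averages were 8.36, 8.49 and 8.48 in SAMR1, SAMP8 and TG-treated SAMP8. The log2 differences were 0.13 between the lines and -0.01 with TG, and the latter turned to 0.06 when the group averages were quantile normalized. The 2 ligands thus differed in that only the Igf2 averages were far apart.

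**Figure D2:**
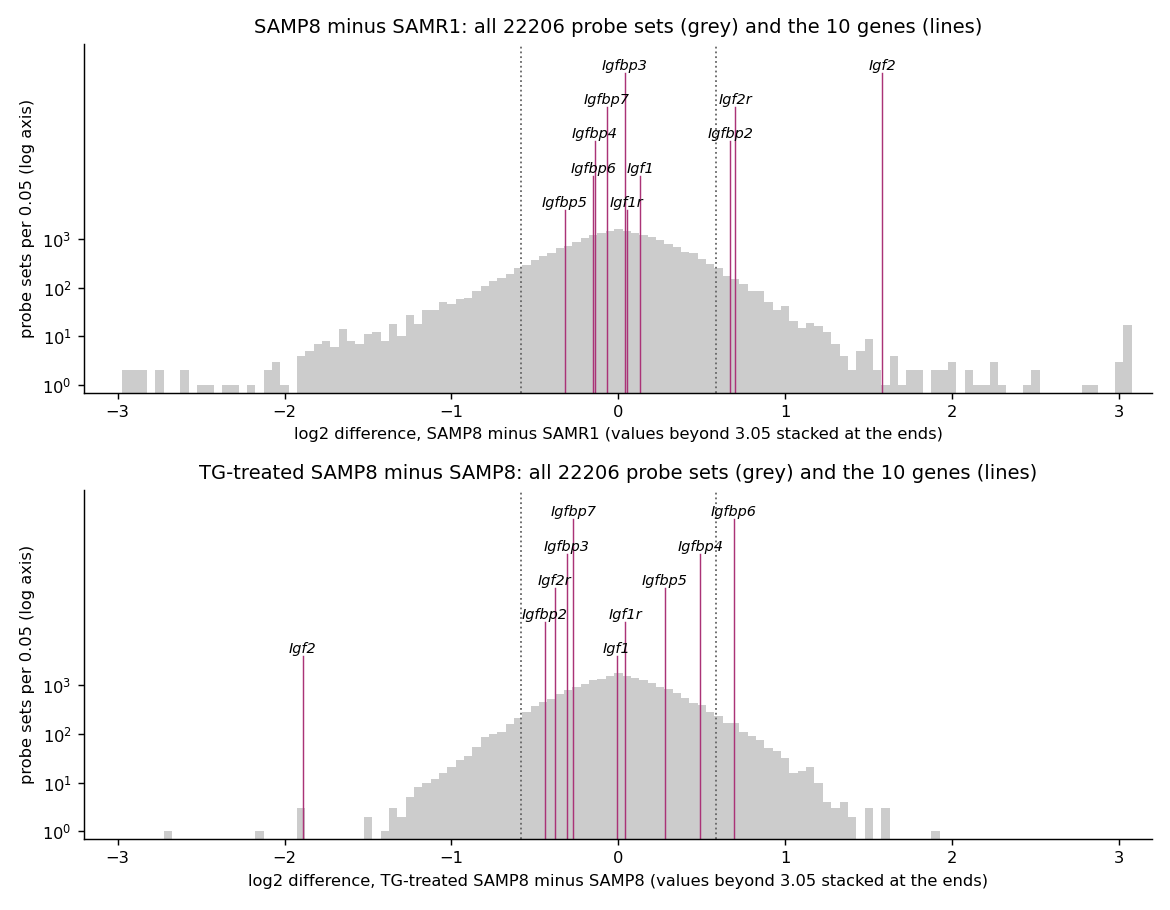
Log2 differences (x axis) of all 22206 probe sets as grey histograms with the number of probe sets per bin on a log axis (y axis), SAMP8 minus SAMR1 above and TG-treated SAMP8 minus SAMP8 below, with the 10 genes as labelled lines whose height has no meaning and dotted lines at 1.5-fold. Igf2 stands at 1.58 above and at -1.89 below, outside the bulk of the probe sets, and Igfbp6 stands at 0.69 in the lower panel.

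Of the receptors, Igf2r also had its highest average in SAMP8. Igf2r, on chromosome 17 from 12682406 to 12769706, averaged 8.80 for SAMR1, 9.50 for SAMP8 and 9.12 with TG. The SAMP8 average was 1.62-fold higher than that of SAMR1 (log2 difference 0.70), which became 0.57, short of the limit, after quantile normalization of the group averages. With TG the average was 1.30-fold lower (-0.38), which is not past the limit, and it stayed 0.32 above SAMR1. Igf1r, on chromosome 7 from 67952257 to 68233668, averaged 8.96, 9.01 and 9.05 in the same order of groups. This main signalling receptor had a log2 difference of 0.05 between the lines, or -0.08 after quantile normalization, and of 0.04 with TG, so its 3 averages lay within 0.09 of each other.

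The 6 binding proteins differed from each other in direction. Igfbp2, on chromosome 1 from 72824480 to 72852474, codes for a binding protein that is plentiful in brain and cerebrospinal fluid, and it averaged 9.36 for SAMR1, 10.03 for SAMP8 and 9.59 with TG. Its SAMP8 average was 1.59-fold higher than that of SAMR1 (log2 difference 0.67, or 0.51 after quantile normalization, which is short of the limit). With TG it was 1.36-fold lower (-0.44), and 0.23 above SAMR1. Igfbp5, on chromosome 1 from 72858065 to 72874865, begins 5.59 kb beyond the end of Igfbp2, with 0 protein-coding genes between them in the RefSeq annotation. Igfbp5 codes for a binding protein that also attaches to the extracellular matrix, and its averages went the other way from those of its neighbour, at 11.05, 10.73 and 11.01. The log2 differences of Igfbp5 were -0.32 between the lines and 0.28 with TG, neither past the limit, and TG-treated SAMP8 and SAMR1 were 0.04 apart (-0.04).

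Igfbp6, on chromosome 15 from 102144186 to 102149512, averaged 5.76 for SAMR1, 5.61 for SAMP8 and 6.30 with TG. The average with TG was 1.61-fold higher than in SAMP8 (log2 difference 0.69), and 589 probe sets had a larger positive difference. Between the lines Igfbp6 had a log2 difference of -0.15, so SAMP8 was 1.11-fold below SAMR1. The TG-treated average also lay 0.54 above that of SAMR1, short of the limit. Igfbp6 thus had its lowest average in SAMP8 and its highest with TG, the reverse of Igf2, which is the contrast the family was picked for.

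Igfbp4, on chromosome 11 from 99040005 to 99052655, codes for a binding protein known to hold back IGF action until a protease cleaves it. It averaged 8.58, 8.44 and 8.93 in SAMR1, SAMP8 and TG-treated SAMP8. With TG it was 1.40-fold higher (0.49), the second largest positive difference of the family, while the lines differed by -0.14. Igfbp3, on chromosome 11 from 7206086 to 7215498, is the main carrier of IGFs in blood and averaged 6.17, 6.21 and 5.90. Igfbp7, on chromosome 5 from 77349240 to 77408045, binds IGFs weakly and is known from vessels, and it averaged 7.40, 7.33 and 7.06. Both were lower with TG than in either vehicle group, with log2 differences from SAMP8 of -0.31 and -0.27 and from SAMR1 of -0.27 and -0.34, none past the limit.

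Over the 10 genes, the median log2 difference was 0.04 between the lines and -0.14 with TG, beside medians of 0.00 and 0.01 over all probe sets. With TG, 4 of the 10 averages were higher and 6 lower, and the binding proteins were divided, with Igfbp4, Igfbp5 and Igfbp6 higher and Igfbp2, Igfbp3 and Igfbp7 lower.

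The region around Igf2 was examined because Igf2 is an imprinted gene, expressed from the paternal copy in most tissues, whose neighbours share regulatory elements with it. Within 500 kb of Igf2, 26 other genes of the RefSeq annotation were represented by 24 probe sets, of which 7 were among the 25% with the lowest mean signal. In SAMP8 vs. SAMR1 their differences ran from -0.89 to 0.37 with a median of -0.05, and with TG from -0.37 to 0.81 with a median of 0.06. Ins2, an insulin gene 11.8 kb from Igf2, averaged 4.39 for SAMR1, 4.48 for SAMP8 and 4.77 with TG. H19, the noncoding RNA gene that is expressed from the maternal copy, lies 72.6 kb from Igf2 on the other side and shares its probe set with Mir675. Its averages were 3.11, 3.46 and 3.09, which have the order of Igf2 but lie among the lowest signals of the array. None of the 24 probe sets was called higher in SAMP8 and none called lower with TG, so no neighbour matched Igf2 in size. Krtap5-1, a keratin-associated protein gene, was called lower in SAMP8 at 9.74, 8.85 and 9.18. With TG 3 of the 24 were called higher, where 4.48% of all probe sets were, among them Mrpl23, a mitochondrial ribosomal protein gene, at 5.63, 5.87 and 6.68 in the 3 groups. The others, Krtap5-4 (0.61) and Kcnq1 (0.59), were just past the limit, and Kcnq1 lay among the low signals.

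**Figure D3:**
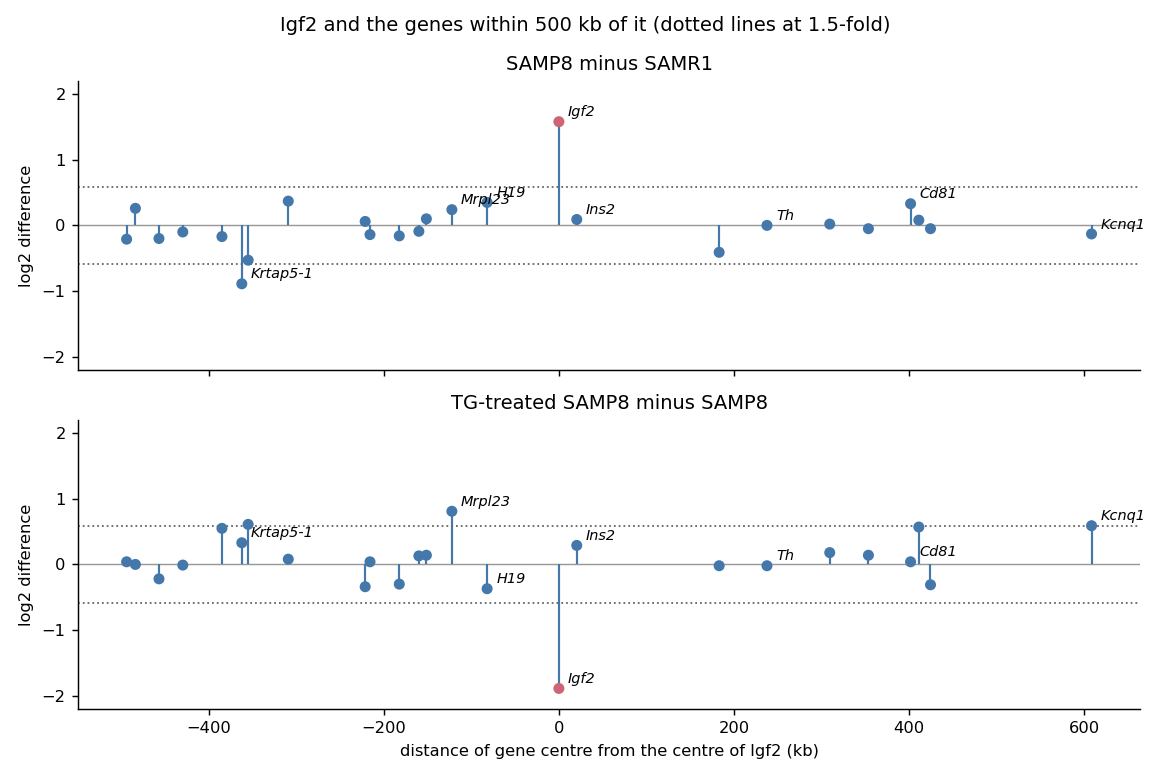
Log2 differences (y axis) of Igf2 (red) and of the genes within 500 kb of it (blue) against the distance between gene centres in kb (x axis), SAMP8 minus SAMR1 above and TG-treated SAMP8 minus SAMP8 below, with dotted lines at 1.5-fold. Igf2 is the only point past the upper line above and the only point past the lower line below, while Mrpl23 is at 0.81 in the lower panel.

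The genes that carry the IGF signal into the cell were taken as a list of 33 adaptors, kinases and targets, all of them measured. Between the lines 2 of them were called higher and 0 lower, against 5% and 6.08% of all probe sets, with a median of 0.03. With TG 1 was called higher and 3 lower, against 4.48% and 3.74%, with a median of -0.19. Irs2, the insulin receptor substrate that docks on the activated receptors, averaged 10.18 for SAMR1, 11.08 for SAMP8 and 10.40 with TG. The other main substrate, Irs1, averaged 6.61, 6.47 and 6.41 and was not called. Tsc1, which restrains mTOR, averaged 10.09, 10.83 and 10.06, and Mtor itself averaged 10.83, 11.33 and 10.79 without passing the limit. Grb10, an adaptor that dampens signalling from the insulin and IGF1 receptors, averaged 7.94, 8.32 and 7.50, a log2 difference with TG of -0.82. Eif4ebp1, a translation repressor that mTOR inactivates, was the gene called higher with TG, at 4.55, 4.23 and 4.86.

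Among 9 other ligands and receptors, 1 was called lower in SAMP8 than in SAMR1 (Rln1, a relaxin gene, -0.79) and 1 higher with TG. Of all probe sets, 6.08% and 4.48% were so called. Rln1 was among the low signals, as were 3 of the 9 in all, at 4.76, 3.97 and 4.07. The gene called higher was Insrr, a receptor kinase related to the insulin receptor, with averages of 5.87, 5.74 and 6.43. Insr, the insulin receptor, averaged 11.47 for SAMR1, 11.40 for SAMP8 and 11.03 with TG, which is short of the limit. Ghr, the growth hormone receptor, had differences of 0.56 between the lines and -0.49 with TG. Of 16 other binding proteins and factors that release or degrade IGFs, 0 were called in either comparison, and 8 lay among the low signals. Htra1, a protease that cleaves binding proteins, was nearest to the limit with TG at 11.30, 11.46 and 12.03, and it was 0.73 higher with TG than in SAMR1, which is past the limit. Igfbp1, which lies 3.54 kb from Igfbp3, averaged 4.58, 4.77 and 4.84. The 3 genes for IGF2 mRNA-binding proteins were not called in either comparison, and Igf2bp1, whose probe set is shared with Mir3063, had a log2 difference of -0.51 with TG at a low signal (3.78, 3.83 and 3.32), as 2 of these 3 genes had.

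Of 11 imprinted genes that affect growth, 10 were found on the array. Of these, 2 were called higher in SAMP8 and 3 lower with TG, against 5% and 3.74% of all probe sets. Mest, which is paternally expressed like Igf2, averaged 11.73 for SAMR1, 12.60 for SAMP8 and 11.34 with TG, and it was called in both comparisons. Nnat, another paternally expressed gene, averaged 10.13, 11.28 and 10.97 and was called higher in SAMP8. Grb10, described above, and Dlk1, a membrane protein related to Notch ligands (6.22, 5.96 and 5.34), were the others called lower with TG. With TG, 4 of the 10 were higher, 0 of them called, and 6 were lower, with a median of -0.34. The paternally expressed Peg3 (0.28) and Ndn (0.08) were among those higher, so the list had no common direction.

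**Figure D4:**
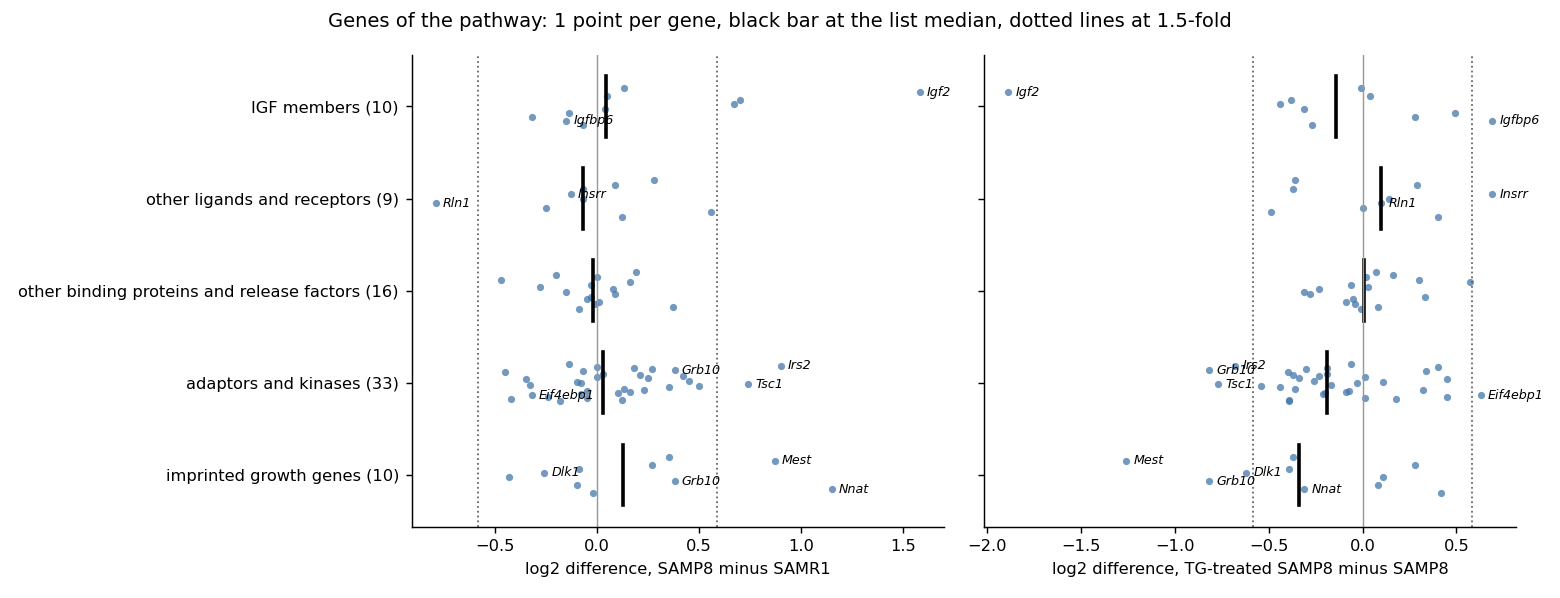
Log2 differences (x axes) of each gene in 5 lists (rows, with the number of measured genes), SAMP8 minus SAMR1 on the left and TG-treated SAMP8 minus SAMP8 on the right, with black bars at the list medians and dotted lines at 1.5-fold. Igf2 lies farther from 0 than every other gene of these lists in both panels, and the adaptors and kinases have a median of -0.19 in the right panel.

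The genes whose pair of differences (between the lines and with TG) was nearest to that of a member were taken among 14494 other probe sets with 1 annotated symbol and more than low signal. The likeness is the Euclidean distance over these 2 differences, that is over 3 group averages, and it carries no test. Nearest to Igf2 was Fmod, a small proteoglycan of connective tissue, with averages of 4.66 for SAMR1, 6.09 for SAMP8 and 4.21 with TG (distance 0.15). The next were Acta2 at 5.52, 7.71 and 5.54 (distance 0.67), Arl15 (0.72), Actn4 (0.84) and AI593442 (0.86), followed by Mgp, the matrix Gla protein (0.90), Sema5a (0.93) and Mest (0.95). After Fmod the distances were thus large, and few probe sets had differences near those of Igf2. Around Igfbp6, whose differences lie nearer to those of most probe sets, the distances were far smaller. Its nearest 8 were Insrr and Rpl36al (0.02 each), Olfr1261, Map2k7, Sdad1, Thap4, Fbxo9 and Ndufc2, the last at 0.05.

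Marker genes of the cells that a dissected hippocampus may carry along were read beside these values, since Fmod, Mgp and Acta2 are known from meninges and vessels. Of 20 meningeal markers, 11 were called lower with TG and 0 higher, with a median of -0.64 and differences from -2.69 to 0.46. Of all probe sets, 3.74% were called lower and 4.48% higher. Among the low signals were 2 of the 20, including Omd (4.17, 4.34 and 3.54), which was called lower. Without Fmod and Mgp, which are also among the nearest patterns to Igf2, 9 of 18 were called lower, with a median of -0.58. In SAMP8 vs. SAMR1, 5 of the 20 were called higher and 2 lower, against 5% and 6.08% of all probe sets. Of the 20, 14 were above and 5 below 0, with a median of 0.21. The summed signal of the list on the linear scale, which the brighter probe sets dominate, was 3828 for SAMR1, 4295 for SAMP8 and 2154 with TG. Without Ptgds the sums were 3157, 3069 and 1964, and without Ptgds and Dcn, decorin, they were 1539, 1932 and 1297, both choices made after the values were seen. The order of SAMP8 and SAMR1 in the sum thus turned on these single genes, while TG was lowest in all 3 sums. Ptgds stood at 9.39, 10.26 and 7.57, Ogn, another small proteoglycan, at 7.81, 8.53 and 7.43, and Dcn at 10.66, 10.15 and 9.38, each lowest with TG. The collagen genes Col1a1, at 5.73, 5.73 and 5.86, and Col1a2, at 6.13, 5.49 and 5.66, which mark meningeal fibroblasts, were not lowest with TG. Ptgds is also made by oligodendrocytes, and Slc22a8, a transporter at 8.04, 8.12 and 7.37, also by choroid plexus and vessels, so the list is not restricted to the meninges. Of 6 oligodendrocyte markers, 5 were higher with TG than in SAMP8, with a median of 0.26, and 1 was called higher (Mag, a myelin protein gene, at 6.87, 6.66 and 7.37) and 0 lower. Between the lines 2 of the 6 were higher and 4 lower, with a median of -0.23, and 1 was called lower (Mobp, -0.80). The part of the meninges in the Igf2 values was not tested.

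For each list below, the shares called of all probe sets were 4.48% higher and 3.74% lower with TG, and 5% and 6.08% between the lines. Of 12 markers of smooth muscle and pericytes, 2 were called lower with TG (Acta2 and Myh11) and 1 higher (Tagln, at 4.74, 3.91 and 4.62), with a median of -0.30. Acta2 is among the nearest patterns to Igf2 and was a reason for reading these markers, so its call adds nothing here. Of the 12, 3 lay among the low signals. Between the lines 3 of the 12 were called higher and 1 lower, with 5 above and 6 below 0 and a median of -0.04. The summed signal of this list was 2991, 6399 and 4975 in the 3 groups, most of it from Vtn, vitronectin, and 1026, 1948 and 1554 without that gene. Rgs5, the brightest of the rest at 8.94, 10.23 and 10.06, dominates the latter sums, so neither set of sums stands for the list as a whole. Of 11 endothelial markers, 10 were higher in SAMP8 than in SAMR1, 3 of them past the limit, with a median of 0.28. With TG, 10 of the 11 were lower than in SAMP8, with a median of -0.40. The 3 called lower with TG were the transporter genes of the blood-brain barrier Slco1a4 (11.06, 11.62 and 10.62), Slc2a1 (12.34, 13.45 and 12.49) and Abcb1a (6.50, 10.82 and 9.90). The 14 choroid plexus markers had medians of 0.00 between the lines and -0.02 with TG, with 2 called higher and 1 lower in each comparison. Of the 14, 3 lay among the low signals, including Kcne2, the gene called lower between the lines. Ttr, the transthyretin gene that defines this tissue, stood at 8.45, 9.33 and 10.05 and was highest with TG. Kl, the klotho gene, was highest in SAMP8 at 6.17, 6.84 and 6.05, as was Folr1, a folate receptor gene, at 5.37, 5.74 and 5.34. Of 7 thalamic markers, 6 were higher in SAMP8 than in SAMR1, 3 of them past the limit, with a median of 0.56, the highest of the marker lists. With TG, 2 of the 7 were higher and 5 lower, with a median of -0.41, and 3 were called lower (Zic1, Prkcd and Plekhg1). Tcf7l2 (-0.04), Slc17a6 (0.07) and Lef1 (0.10) differed little with TG. Zic1 stood at 10.91, 11.47 and 9.56, and Plekhg1 at 8.21, 9.19 and 8.13. Of 11 measured markers of hippocampal principal neurons, 8 were higher and 3 lower in SAMP8 than in SAMR1, with Spink8 and Prox1 called higher. With TG these markers had a median of 0.03, with 0 called higher and 1, Prox1, called lower. Of 8 interneuron markers, 5 were higher and 3 lower with TG than in SAMP8, with a median of 0.23, and 3 were called higher and 0 lower. Those called were Pvalb, parvalbumin (6.66, 6.82 and 7.65), Vip, a neuropeptide gene (7.23, 8.69 and 9.43), and Sst, somatostatin (11.74, 11.31 and 12.00). Gad1 (-0.35), Gad2 (-0.43) and Slc32a1 (-0.20) were lower with TG, none past the limit. All 7 astrocyte markers were higher in SAMP8 than in SAMR1, with a median of 0.17 and 2 called higher (Gfap, 0.95, and Slc1a3, 0.62). With TG, 2 of them were higher and 5 lower, with a median of -0.03 and 0 called. Of 10 microglial markers, 3 were called higher and 2 lower between the lines, and 1 higher and 0 lower with TG. The 7 striatal markers had medians of -0.02 between the lines and -0.07 with TG, where 1, Drd2, was called lower at a low signal. The part of these tissues and cells in the values of the IGF genes was not tested.

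**Figure D5:**
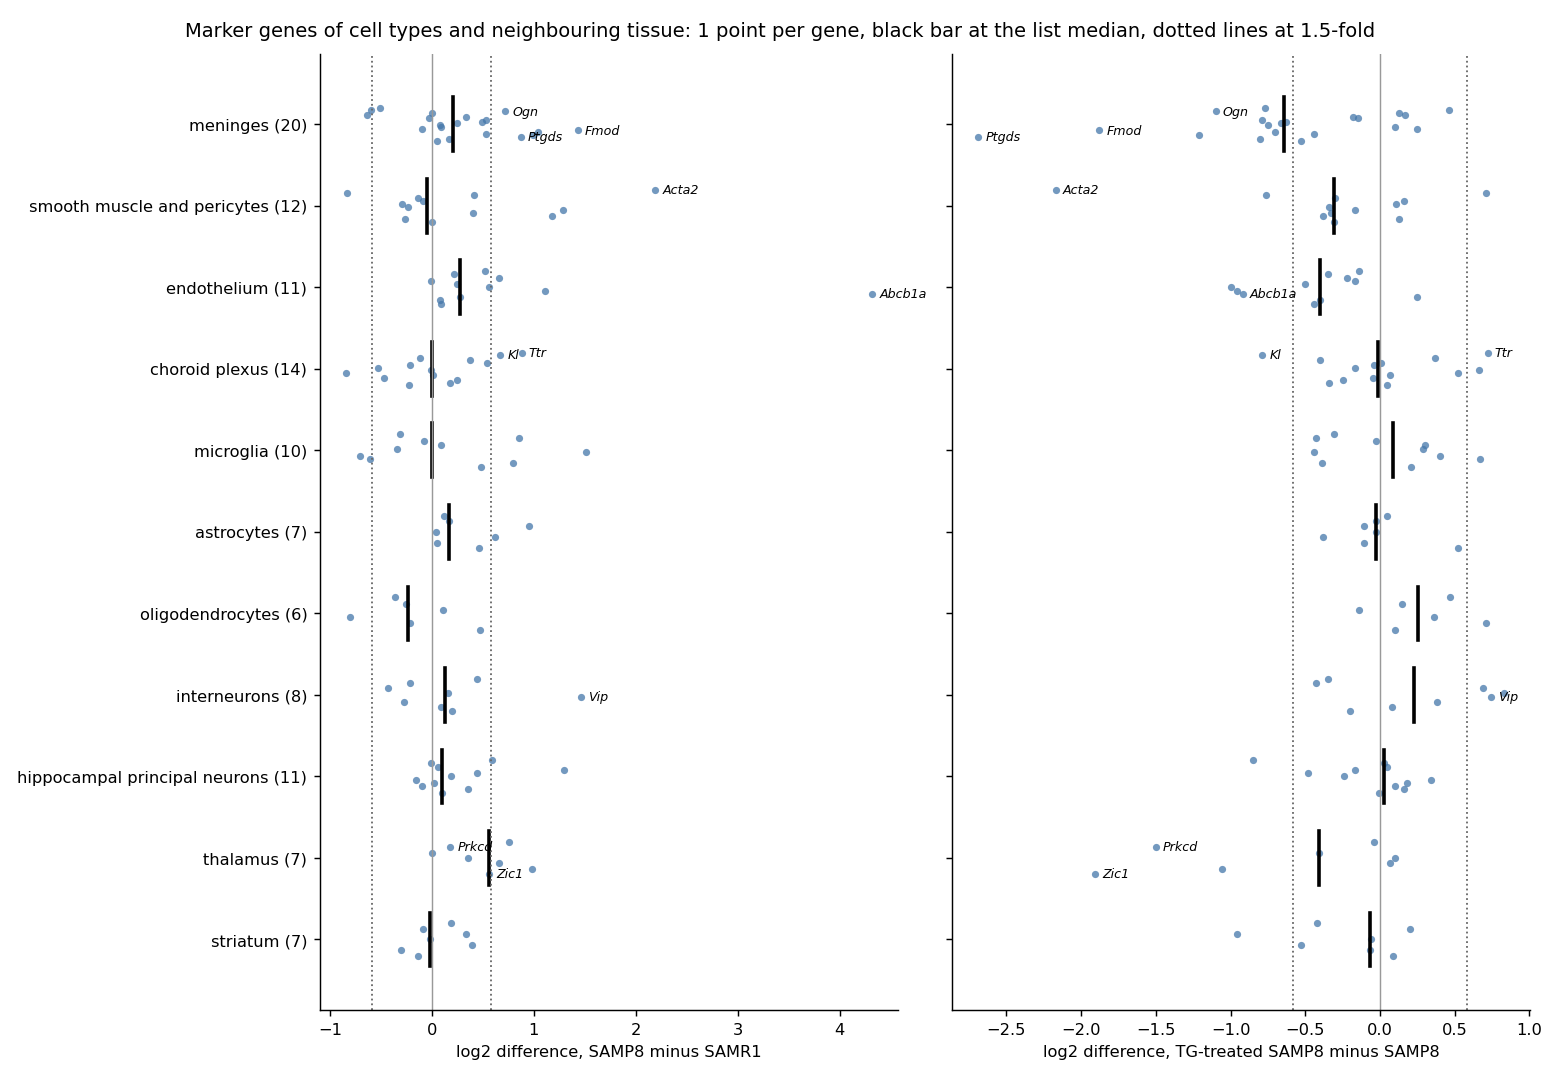
Log2 differences (x axes) of each marker gene in 11 lists (rows, with the number of measured genes), SAMP8 minus SAMR1 on the left and TG-treated SAMP8 minus SAMP8 on the right, with black bars at the list medians and dotted lines at 1.5-fold. The meninges have the lowest list median on the right (-0.64), oligodendrocytes (0.26) and interneurons (0.23) have the highest, and choroid plexus (-0.02) and hippocampal principal neurons (0.03) lie near 0 there.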

How the data were processed

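The authors hybridized hippocampal RNA to Clariom S Mouse arrays and normalized the intensities by SST-RMA in the Transcriptome Analysis Console (version 4.0.2 in the methods, 4.0.1 in the series text), so differences are relative to the whole array. The authors' deposited tables, 1 per comparison, hold group averages as log2 signal on the mm10 (GRCm38) annotation. Their fold changes, p-values and adjusted p-values were not used, and values per array were not analysed here.

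Differences of averages were computed with Python 3.11.15, numpy 2.4.6 and pandas 2.3.3 and drawn with matplotlib 3.10.9. The computation was checked on copies of the SAMR1 averages with known changes added and no noise. That check says nothing about the spread between mice. No test was run, and the number of arrays limits the precision. The difference of TG-treated SAMP8 from SAMR1 takes 1 average from each table. Gene positions are RefSeq gene spans in GRCm38.p6, where all 10 members were found by symbol. The places of the probes within a gene were not used here.

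The members and lists were chosen with earlier results of these data known. The rule for named genes took all members, up to 6 genes past the limit of each list, Insr, Irs1, Irs2, Ins2 and H19, and the 8 nearest patterns of Igf2 and of Igfbp6, with the probe set of highest mean for each gene. Other genes were named after their values were seen. A description in the sample records concerns a macrophage cell line and was not used. Alternatives were limits of 0.322 in log2 and of 2-fold, leaving out the lowest 25% of probe sets by mean signal, centring on the median, quantile normalization of the averages and the mean over the probe sets of a gene.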

Additional observations from a re-analysis of the deposited data

How the results depend on the processing

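With a limit of 2-fold, 1 of the 10 genes was called higher in SAMP8 than in SAMR1 (Igf2) and 0 were called higher with TG than in SAMP8, against 0.838% and 0.473% of all probe sets. With a limit of 0.322 in log2, 2 were called higher and 3 lower with TG than in SAMP8, against 15.1% and 14.2% of all probe sets, and 2 higher and 1 lower in TG-treated SAMP8 than in SAMR1, against 16.1% and 16%. Leaving out the low signals or centring on the median moved none of the counts at 1.5-fold, and centring moved a member's difference by at most 0.05. Quantile normalization of the group averages moved them by at most 0.16 and took Igf2r (0.57) and Igfbp2 (0.51) below the limit in SAMP8 vs. SAMR1, and the cause was not tested. It left Igf2 at 1.49 and -1.82 and turned the sign of Igf1r between the lines and of Igf1 with TG, both near 0. Every member has 1 probe set, so the mean over probe sets is the same value. No paired analysis was possible because the tables hold group averages without a value per array, and for the same reason no array could be left out in turn.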
